A study of Mus musculus with 4 samples.

Results

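Schwann cells are the glia of peripheral nerves, and 7 genes that they use to build myelin or that mark them were followed in the inflamed mouse ear: Mbp, Pmp22, Prx, Mag, Cnp, S100b and Ngfr. They were found by gene name among the non-control spots of the arrays, where they are 7 of 34797 names and were measured by 10 of 55681 probes on 19 spots per array. Mbp had 3 probes, Pmp22 had 2 and each of the others had 1.

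Both groups of mice carried floxed RelA alleles (RelAfl/fl), RelA (p65) being a subunit of NF-kB. The 2 mutant mice also carried K14Cre, in which keratin 14 regulatory sequence directs Cre to basal keratinocytes and not, as far as is known, to Schwann cells, and the 2 wild-type mice did not. All 4 ears were taken 48 h after DNFB (2,4-dinitrofluorobenzene), which provokes contact allergy, was applied. Every difference below is therefore between inflamed ears, with no untreated ear analysed here, and an effect of the Cre transgene itself cannot be told apart from that of RelA loss. The labels used here give no strain, age or sex.

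In a peripheral nerve a myelinating Schwann cell wraps 1 axon in compacted layers of its own membrane, whereas non-myelinating Schwann cells hold several thin sensory axons together. Skin holds both kinds, together with glia around sensory endings. After injury these cells turn down myelin genes and take up a repair state in which the transcription factor c-Jun and the neurotrophin receptor p75NTR, the product of Ngfr, are high. S100b and Ngfr are not restricted to Schwann cells: cartilage cells, melanocytes and adipocytes can hold S100b, and some epithelial, stromal and nerve sheath cells can hold Ngfr.

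Total RNA of each ear was measured on 1 one-colour array, 100 ng being labelled with Cy3, and the 4 arrays lay on 1 slide. The median spot intensity was 47.2 to 54.6, 61.2% to 64.3% of the spots per array exceeded background by the scanner software's own flag, and 0 were saturated. The arrays correlated with each other at r between 0.981 and 0.993 across probes, lowest for mutant mouse 2, whose array had a corner of irregular spots that held 0 of the member spots. The targeted gene, Rela, differed by 0.11 ± 0.12 on the log2 scale (adjusted p = 0.90), at a probe whose place relative to the deleted part is not known here, in tissue where many cells lack K14Cre. Levels are given as log2 intensity relative to the 75th percentile of the array, so that 0 is that percentile and 1 unit is a doubling. Where 2 values are given for a pair of mice, mouse 1 comes first. Differences are mutant minus wild type, with limma's moderated standard error after the ± sign, and 2 mice per group. A probe was called when its p-value, after Benjamini-Hochberg adjustment across the 33664 probes tested, was under 0.05.

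The probes are 60 bases long, and 30 bases are shown for the Ngfr, Pmp22, Prx and Mag probes. The Ngfr sequence is shown because the only sizeable difference among these genes rests on that single probe. The others are shown because 3 of them hold AATAAA and because Pmp22 was read by a pair of probes, of which the first does not hold it in the bases shown. Capitals mark AATAAA, the canonical polyadenylation signal, which lies near the 3′ end of many mRNAs.
Ngfr, bases 1 to 30: tccagctggcgactatgagatccagacctc
Pmp22, first probe, bases 1 to 30: ttcccctagccctcctcagtggtatcatct
Pmp22, second probe, bases 31 to 60: gatgcatcaaAATAAAcatcagagtaactc
Prx, bases 31 to 60: tcaaactatgggAATAAAataattcaaaag
Mag, bases 31 to 60: aaagggacatgaAATAAAtgtcctaatgac
The motif AATAAA was searched on the strand of the probe, and 3 of the 10 member probes held it, against 12% of all probes tested. The Ngfr probe held no such hexamer.

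On the mouse build mm9 the Ngfr probe, A_52_P236448, lies on chromosome 11 at 95430211 to 95430270 on the minus strand. The 2 Pmp22 probes lie on chromosome 11 at 62971862 to 62971921 and at 62972989 to 62973048, 1.19 kb apart from end to end. The Prx probe lies on chromosome 7 at 28304999 to 28305058 and the Mag probe on the same chromosome at 31684202 to 31684261. The S100b probe lies on chromosome 10 at 75723783 to 75723842, and the Cnp probe on chromosome 11 at 100442617 to 100442676. The 3 Mbp probes spread over 53.1 kb of chromosome 18. Mbp makes several transcripts from more than 1 start, so probes so far apart need not read the same RNA. The exon or untranslated region under each probe is not given.

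All 10 member probes were well above background on all 4 arrays. Other genes used as markers of Schwann cells were also measurable, but whether they are specific to these cells in the ear was not tested. Sox10, a transcription factor of the glial lineage, was at -0.73 and -0.91 in the wild-type pair against -0.59 and -0.65 in the mutant pair. Cdh19, of Schwann cell precursors, was well above background on all 4 arrays as well. Oligodendrocytes, the myelinating glia of the brain, express some of the same genes. Of 8 genes of that type 3 (Opalin, Olig2 and Myrf) were not well above background on any array. The other 5 were measurable: Mog, Cldn11, Aspa and Ermn were well above background on all 4 arrays, and Mobp in the wild-type mice only.

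None of the 10 member probes passed the test, where 7 of the 33664 probes tested did (0.0208%). With limma's unadjusted p under 0.05 there was 1 member probe, that of Ngfr, against a background of 6.56%, or 3.56% for lower levels in the mutant mice. The median difference of the member probes was 0.05, and that of all probes tested was 0.01. The median size of a difference, without its sign, was 0.07 for member probes and 0.12 for all probes. In 8 of the 10 probes the mutant and wild-type mice overlapped, and 36.3% of all probes tested had no overlap. In 1 both mutant mice were lower than both wild-type mice, where 17.6% of all probes tested were, and in 1 both were higher, where 18.7% were. In whole ears a smaller number of cells and less RNA per cell cannot be told apart.

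**Figure D1:**
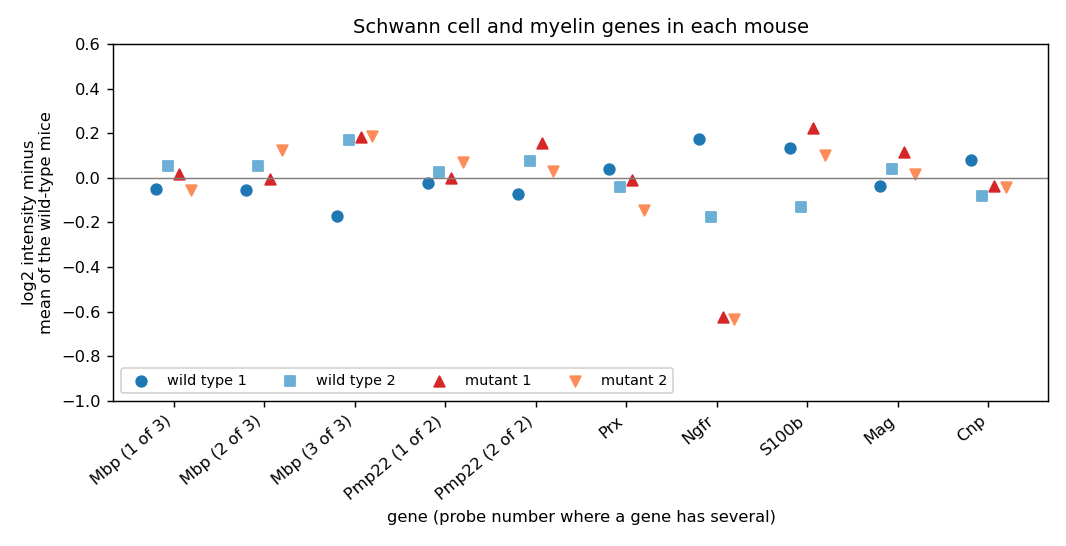
Level of each member probe in each of the 4 mice, as log2 intensity minus the mean of the wild-type mice for that probe. Wild-type and mutant mice are in different colours. Only the Ngfr probe shows both mutant points clearly below both wild-type points, and most of the other probes show overlapping points. Before that mean was subtracted, the Ngfr levels relative to the 75th percentile were -0.08 and -0.09 against 0.72 and 0.37.

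The gene with the largest difference was Ngfr, which encodes p75NTR, a receptor for neurotrophins that is high in immature, non-myelinating and repair Schwann cells. Its level was 0.72 in wild-type mouse 1, 0.37 in wild-type mouse 2, -0.08 in mutant mouse 1 and -0.09 in mutant mouse 2. The mutant mice lay close together and below both wild-type mice, whose own distance was smaller than that between the group means. The difference was -0.63 ± 0.16, with a 95% interval of -1.05 to -0.21, or a level 1.55-fold lower with an interval of 1.16-fold to 2.07-fold. The unadjusted p was 0.013 and the adjusted p was 0.61, so the difference did not pass the test. By p-value the probe ranked 709 of 33664, and 796 probes had an equal or larger decrease.

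Ngfr was the only member printed at 10 spots per array, which gives the measurement error within an array. Before scaling, the spots with no outlier mark had intensities of 1057 to 1176 in wild-type mouse 1, 739 to 840 in wild-type mouse 2, 554 to 620 in mutant mouse 1 and 521 to 588 in mutant mouse 2. On the wild-type arrays 2 spots of mouse 1 and 1 of mouse 2 were left out as outliers. The lowest wild-type spot was above the highest mutant spot. The spots of 1 array had an SD of 0.047 to 0.058 on the log2 scale, which is smaller than the gap between the 2 wild-type mice. The distance between groups was thus larger than the error of a spot, while the number of mice limits the test. Repeat spots share the RNA of 1 ear and are not replicates.

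**Figure D2:**
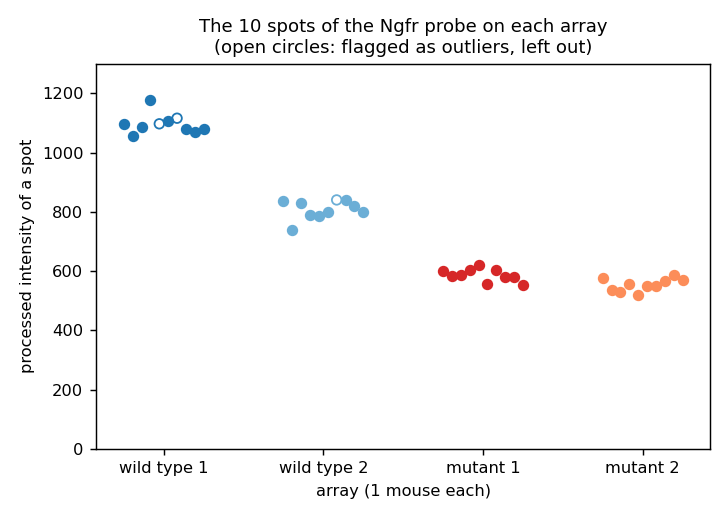
Processed intensity, before scaling between arrays, of every spot of the Ngfr probe on each of the 4 arrays, with outlier spots marked apart. The wild-type spots in use begin at 739 and the mutant spots end at 620, and the 2 wild-type arrays are separated from each other as well.

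Against the other members of the same ear, the Ngfr level minus the mean of the other 9 probes was 0.10 and -0.28 in the wild-type pair against -0.78 and -0.75 in the mutant pair. The mutant pair was lower by 0.68 on average. Since the other probes were nearly flat, this restates the separation of Ngfr. An exact permutation of 2 against 2 mice gave p = 0.3333. It cannot give a lower p, so nothing is concluded from it.

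The proteins of compact myelin gave small differences. Mbp, which binds the cytoplasmic faces of the membrane together, was read at its brightest probe (A_52_P604195) at 2.77 and 2.87 in the wild-type pair against 2.81 and 2.94 in the mutant pair. The groups overlapped, and the difference was 0.06 ± 0.12 (95% interval -0.26 to 0.38, adjusted p = 0.95). A second Mbp probe (A_52_P329451) was at -2.34 and -2.24 in the wild-type pair against -2.28 and -2.35 in the mutant pair, with a difference of -0.02 ± 0.11.

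The third Mbp probe (A_55_P1992160) was at -2.32 and -1.97 in the wild-type pair against -1.96 and -1.96 in the mutant pair. Both mutant mice were above both wild-type mice, but by less than the distance between the wild-type mice, and wild-type mouse 2 was almost level with them. The difference was 0.19 ± 0.16 (95% interval -0.23 to 0.60, adjusted p = 0.88). The 3 Mbp probes thus differed in sign, although the second was positive (0.052) after normexp background correction, and each interval included 0.

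Pmp22 encodes a small membrane protein of compact myelin whose gene dosage causes inherited neuropathy in humans, and fibroblasts and epithelial cells express it as well. Its second probe was at 3.49 and 3.64 in the wild-type pair against 3.71 and 3.59 in the mutant pair, and the groups overlapped. The difference was 0.09 ± 0.12 (adjusted p = 0.92). The first probe differed by 0.04 ± 0.11 (adjusted p = 0.97), so both probes of this gene gave a small positive difference within their error.

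Prx, Mag and Cnp belong to the parts of the myelin sheath outside the compact layers or at its borders. Prx, the scaffold that links the outer Schwann cell membrane to the basal lamina through Drp2, was at 1.47 and 1.39 in the wild-type pair against 1.42 and 1.28 in the mutant pair. The groups overlapped and the difference was -0.08 ± 0.12 (adjusted p = 0.93). Mag, the adhesion protein facing the axon, was at -2.12 and -2.04 in the wild-type pair against -1.97 and -2.07 in the mutant pair, a difference of 0.06 ± 0.11 (adjusted p = 0.94). Here mutant mouse 2 lay between the 2 wild-type mice. Cnp, an enzyme of the cytoplasm-filled channels of myelin, was at 0.40 and 0.24 in the wild-type pair against 0.28 and 0.28 in the mutant pair, a difference of -0.04 ± 0.12 (adjusted p = 0.97). Both mutant mice lay between the 2 wild-type mice.

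S100b, a calcium-binding protein used as a general marker of Schwann cells, was at 3.19 in wild-type mouse 1, 2.93 in wild-type mouse 2, 3.28 in mutant mouse 1 and 3.16 in mutant mouse 2. The groups overlapped, wild-type mouse 2 being the lowest. The difference was 0.16 ± 0.14 (95% interval -0.22 to 0.54, adjusted p = 0.88).

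Across the 9 member probes other than that of Ngfr, the largest difference was 1.14-fold. Their standard errors were 0.11 to 0.16, and the 95% intervals together reached from -0.39 to 0.60, that is from 1.31-fold lower to 1.51-fold higher. Of all probes tested, 5.31% had a difference past 1.5-fold and 2.74% were lower by that much, among them the Ngfr probe and none of the others here.

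**Figure D3:**
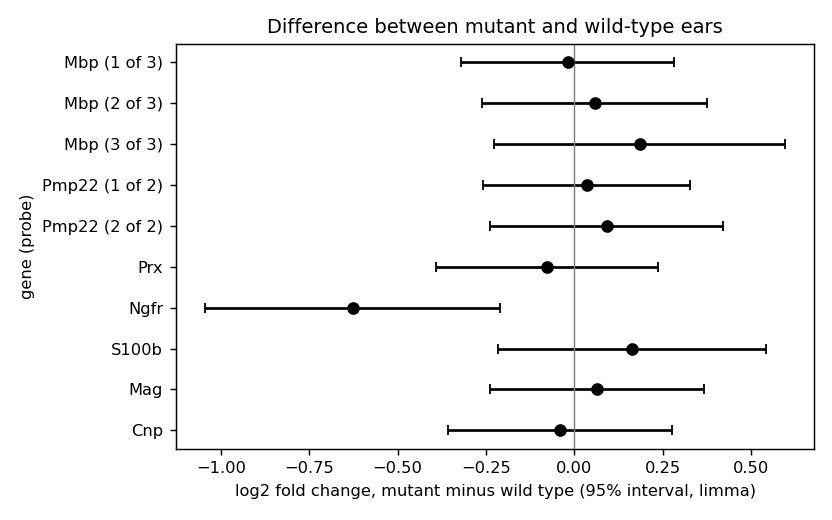
Difference between mutant and wild-type mice for each member probe on the log2 scale, with its 95% interval from limma. The interval of Ngfr, -1.05 to -0.21, lies below 0, and the intervals of the 9 other probes all include 0.

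Other genes of Schwann cells, axons and nerve sheath were described at the brightest tested probe of each gene. Of 120 genes in 14 lists, which include markers of other ear cell types, 13 could not be tested and 0 of the rest were called by limma, where 0.0169% of all genes tested were. The brightest probe of 11 list genes lay in the irregular corner of mutant mouse 2's array. At an unadjusted p under 0.05, 12 were higher (background 2.82%) and 4 lower (background 3.31%), and with no overlap between groups 29 were higher (background 18.9%) and 16 lower (background 17.4%). Calca is in both counts of higher genes and Mobp in the lower count with no overlap. Each entered the test only through the group in which it was higher.

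Among 16 other myelin and node proteins, 2 were higher and 4 lower with no overlap, and the median difference was -0.04. Fa2h, the enzyme that makes the hydroxylated fatty acids of myelin lipids and also of epidermal and sebaceous lipids, was at 5.47 and 5.29 in the wild-type pair against 4.65 and 4.95 in the mutant pair. Lower levels in both mutant mice gave a difference of -0.58 ± 0.16 (unadjusted p = 0.017, adjusted p = 0.65). Nfasc, the neurofascin of nodes and paranodes, was at -1.86 and -2.12 in the wild-type pair against -1.49 and -1.52 in the mutant pair. Higher levels in both mutant mice gave a difference of 0.49 ± 0.14 (unadjusted p = 0.019, adjusted p = 0.66). Drp2, the partner of Prx, differed by -0.32 ± 0.13 (adjusted p = 0.79) with both mutant mice lower. With the mean of its 2 probes Drp2 differed by -0.20. Ncmap, a protein of non-compact myelin, differed by -0.35 ± 0.27 with overlapping groups.

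Of 12 Schwann cell regulators 10 were tested, 3 were higher and 0 lower with no overlap, and the median difference was 0.07. Pou3f1, which drives the step to myelination and is also an epidermal transcription factor, was at 3.80 and 3.83 in the wild-type pair against 4.04 and 4.18 in the mutant pair. Both mutant mice were higher, by 0.30 ± 0.12 (adjusted p = 0.78). Sox10 differed by 0.20 ± 0.12 (adjusted p = 0.86), and Adgrg6, the receptor that starts myelination, by 0.20 ± 0.12 (adjusted p = 0.85). Erbb3, the neuregulin receptor of Schwann cells, differed by -0.26 ± 0.21 with overlapping groups. Egr2, the main transcription factor of myelination, had an outlier spot on 1 array and was not tested, and Pou3f2 was not well above background on any array.

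Of 15 genes of non-myelinating and repair Schwann cells, with which Ngfr is usually grouped, 13 were tested, 4 were higher and 0 lower with no overlap, and the median difference was 0.04. Ncam1, 1 of the 4 higher genes, had its spot in the irregular corner of mutant mouse 2's array. Jun, the driver of the repair state that many skin cells also express, was at 3.38 and 3.04 in the wild-type pair against 3.44 and 3.51 in the mutant pair, a difference of 0.27 ± 0.16 (adjusted p = 0.85). Olig1, a repair gene that is also an oligodendrocyte transcription factor, was at -3.40 and -3.31 in the wild-type pair against -2.86 and -2.71 in the mutant pair. The mutant pair lay above the wild-type pair, by 0.57 ± 0.12 (unadjusted p = 0.0066, adjusted p = 0.56), or by 0.36 after normexp background correction. Artn, a ligand of the GDNF family, differed by 0.47 ± 0.18 (adjusted p = 0.76), also with both mutant mice higher. Sox2 and Shh were not well above background on any array.

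The list of neurotrophins and their receptors had 8 genes with a median difference of 0.14, of which 3 were higher and 1 lower with no overlap. Bdnf, brain-derived neurotrophic factor, differed by -0.25 ± 0.18 (adjusted p = 0.87) with overlapping groups. Ntf3, neurotrophin 3, differed by -0.15 ± 0.14 (adjusted p = 0.89) with both mutant mice below both wild-type mice.

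Of 10 axon genes 5 were tested, and Nefl, Nefm, Prph, Scn9a and Scn10a were not well above background on any array. Nefh, the heavy neurofilament subunit, was at -3.63 and -4.48 in the wild-type pair against -5.10 and -4.94 in the mutant pair. The mutant pair lay below the wild-type pair, with a difference of -0.97 ± 0.31 (adjusted p = 0.71). That value was -0.27 after normexp background correction, -0.54 without wild-type mouse 1 and -1.39 with wild-type mouse 2 left out. Tubb3, a tubulin of neurons and of some dividing cells, differed by 0.51 ± 0.15 (adjusted p = 0.67), and Stmn2, a protein of growing axons, by -0.45 ± 0.19 (adjusted p = 0.79). Calca, which encodes the neuropeptide CGRP, was not well above background in the wild-type mice, so it entered the test through the mutant mice only. The fit gave an adjusted p of 0.52. A floor estimate put it 1.37-fold higher in the mutant mice. That estimate sets the mutant mean against the lowest signal well above background, or the probe's own where higher, on each wild-type array. It takes no account of error. After normexp background correction the fitted difference of Calca was 0.29 on the log2 scale, less than 1.37-fold, so the estimate is not a lower limit. The mRNA of axon proteins lies mostly in nerve cell bodies, which are outside the ear.

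The nerve sheath list, of perineurial and endoneurial genes, had a median difference of 0.20 over 7 genes, 3 of them higher and 0 lower with no overlap. The median is the value of Itgb4, whose spot, like that of Tjp1 among the 3 higher genes, lay in the irregular corner of mutant mouse 2's array. Slc2a1, the glucose transporter of the perineurium and of proliferating epidermis, was at 3.09 and 3.08 in the wild-type pair against 3.44 and 3.51 in the mutant pair. The groups did not overlap, the mutant pair being higher by 0.39 ± 0.11 (unadjusted p = 0.019, adjusted p = 0.66). Of 8 oligodendrocyte genes 5 were tested, with a median of -0.07. Mobp was not well above background in the mutant mice and entered the test through the wild-type mice only. The same kind of floor estimate put it 1.13-fold lower in the mutant mice. Its fitted difference was -0.024 after normexp background correction, so this estimate is not a lower limit either.

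**Figure D4:**
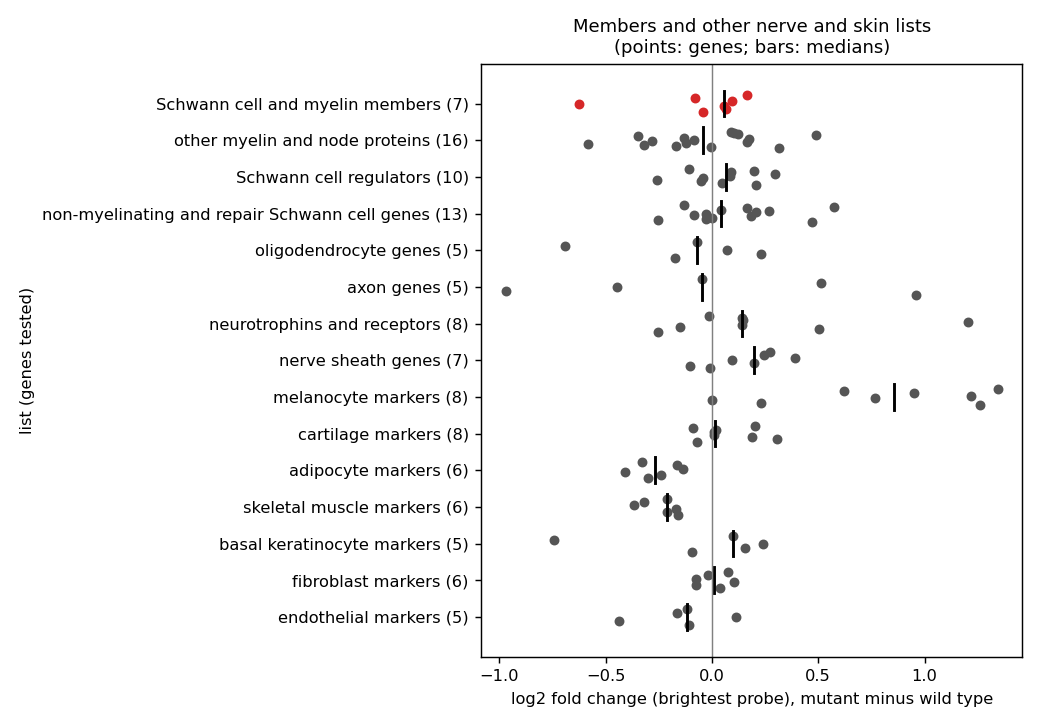
Difference between mutant and wild-type mice on the log2 scale at the brightest tested probe of each gene, with 1 point per gene and 1 row per list, the members first. The melanocyte markers have the highest median, 0.86, and the medians of the Schwann cell regulators and of the repair genes are 0.07 and 0.04.

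Markers of other ear cells that can hold S100b or Ngfr moved between the mice to different degrees, and their part in the member values was not tested. The summed level of a list is given as linear intensity relative to the 75th percentile. All 8 melanocyte markers had a positive difference, 6 of 8 with no overlap, and their sum was 11.4 and 10.4 in the wild-type pair against 18.1 and 21.6 in the mutant pair. Dct and Tyrp1, enzymes of pigment synthesis, differed by 1.26 ± 0.17 and 1.35 ± 0.16 (adjusted p = 0.44 for each), the Dct spot lying in the irregular corner of mutant mouse 2's array. S100b, with overlapping groups, did not share that separation.

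The cartilage sum was 23.7 and 18.6 in the wild-type pair against 23.1 and 19.7 in the mutant pair, with 8 of 9 markers tested and Matn1 not well above background on any array. The adipocyte sum was 62.5 and 59.3 in the wild-type pair against 59.1 and 47.7 in the mutant pair, and all 6 markers had a negative difference, 3 with no overlap. The skeletal muscle sum was 169 and 144 in the wild-type pair against 157 and 108 in the mutant pair, lowest in mutant mouse 2. Mouse 1 of each group was higher than mouse 2 for S100b and for the cartilage, adipocyte and muscle sums alike. Acta1 of the muscle list and Lep of the adipocyte list had spots in the irregular corner of that mouse's array.

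The keratinocyte layer is the one in which K14Cre acts, and hair follicle and basal epithelium can express Ngfr. The basal keratinocyte sum was 713 and 826 in the wild-type pair against 794 and 843 in the mutant pair, without separation of the groups. Krt15, a keratin of basal and follicle stem cells, was at 6.06 and 5.74 in the wild-type pair against 5.03 and 5.28 in the mutant pair. It was the 1 marker of 5 that was lower with no overlap. The difference was -0.74 ± 0.17 (unadjusted p = 0.0095, adjusted p = 0.59), and a link to Ngfr was not tested. Krt14 and Itga6 were higher with no overlap, by 0.24 ± 0.18 and 0.16 ± 0.13. With the mean of its 2 probes Itga6 differed by 0.04. Fibroblast and endothelial markers had medians of 0.01 and -0.12.

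The mean profile of the 7 members, each at its brightest probe and centred on its own mean, was nearly flat over the 4 mice. It was 0.06 and -0.01 in the wild-type pair against 0.00 and -0.05 in the mutant pair. The 5 genes whose levels followed it most closely were Chst1, Fkbp8, Slc9a8, Fbln7 and Plcl2, with Pearson's r of 0.9995 to 0.99975 over 4 mice. With so few points 91 of 18450 probes compared had r above 0.99, so the likeness is only a description. It was in each case an order with wild-type mouse 1 highest and mutant mouse 2 lowest. Among the members, Ngfr and Prx had that order, Prx being at 1.47 and 1.39 in the wild-type pair against 1.42 and 1.28 in the mutant pair. The 9 member probes other than that of Ngfr include fainter Mbp and Pmp22 probes that the profile left out. Their mean level was lowest in wild-type mouse 1, at 0.62 and 0.65 in the wild-type pair against 0.70 and 0.67 in the mutant pair. That mean thus did not have the order of the profile. Ngfr itself was lower in mutant mouse 1 than in wild-type mouse 2, unlike the profile and the 5 genes. The likeness is therefore not that of a single member.

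The size of the Ngfr difference depended on which wild-type mouse was used. It was -0.45 when wild-type mouse 1 was left out and -0.80 when wild-type mouse 2 was. Leaving out mutant mouse 1 or 2 gave -0.63 or -0.62. Over 18 other settings of the analysis it was negative in each, with an unadjusted p of 0.0023 to 0.050 and an adjusted p of 0.31 to 0.92, so that it was called in 0 of them.

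**Figure D5:**
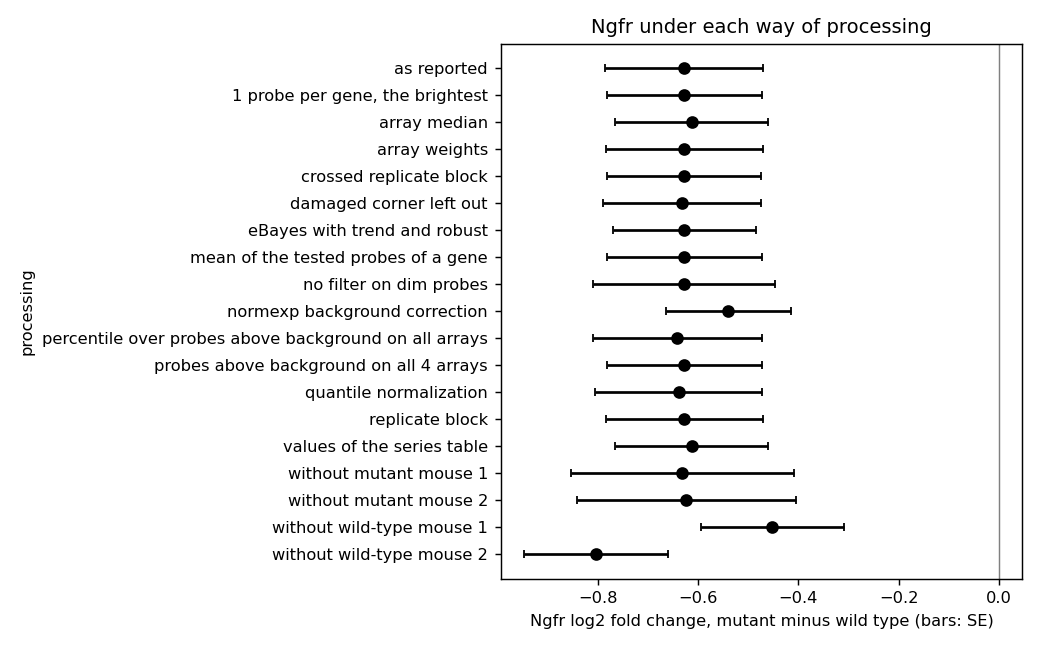
Difference of the Ngfr probe between mutant and wild-type mice on the log2 scale under the main setting and each of the 18 others. Bars show the standard error. All values lie between -0.80 and -0.45, both of which were obtained with 1 wild-type mouse left out.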

How the data were processed

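One-colour arrays of 4 ears were analysed. The deposited processed intensities were made by Agilent Feature Extraction 10.7.3.1, per the file headers, with a fitted background subtracted and no scaling between arrays, and probe positions are on mm9. The deposited raw mean and local background signals are intensities without correction, and the deposited flags, coded as values of 0 or 1 in each file, give outlier, saturated and well-above-background spots per the file headers. The authors' series table was found to hold the linear ratio of each processed intensity to the array median.

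The 3671 control spots and outlier spots were left out. Log2 of the deposited intensity minus the array's 75th percentile was averaged over spots of a probe. A probe entered the test if, in at least 1 group, both arrays had it well above background. The test was limma 3.58.1 (lmFit, eBayes, two-sided) in R 4.3.3, with 2 residual and 2.55 prior degrees of freedom and Benjamini-Hochberg adjustment. The fit was tested on simulated data. The number of arrays limits the precision.

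Genes were matched by name, or for the lists by accession through the RefSeq table. Named list genes are those called, up to 4 per list with the largest difference, and genes used as markers of a cell type. Other genes are named for a count of 5 or fewer or for not being measurable. Some list genes are not reported here by name. Members and lists were chosen with earlier results of these data known. Replicate numbers of the 2 groups were not used as pairs: their deviations correlated at -0.159. Alternatives were 17 planned and 1 added after the data were seen, the crossed block.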

Additional observations from a re-analysis of the deposited data

How the results depend on the processing

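Member probes called stayed at 0 in all 18 alternatives, and the median member difference stayed between 0.01 and 0.06. The number of probes called over all probes was 7 and depended on the setting: 4 with 1 probe per gene, 35 with trend and robust eBayes, 1 with no filter on dim probes, 2 with probes above background on all 4 arrays, and 0 to 177 when 1 mouse was left out (0 without wild-type mouse 1 or 2, 10 without mutant mouse 2 and 177 without mutant mouse 1). Of the list genes, 3 (Dct, Tyrp1 and Pmel) were called with trend and robust eBayes, against 0. With the replicate number as a block 1 probe was called, and with the crossed pairing 1, so neither pairing changed a member's call; the Ngfr adjusted p was 0.79 with the replicate block. The sign of 2 differences changed with the processing: Mbp at probe A_52_P329451 was 0.052 with normexp, and Kdr was -0.035 with the mean of its probes. Leaving out 1 mouse gave values on both sides of 0 for 13 results: Mbp -0.069 to 0.031 at A_52_P329451 and -0.0073 to 0.12 at A_52_P604195, the first Pmp22 probe -0.0018 to 0.073, Cnp -0.12 to 0.041, Aspa -0.42 to 0.067, Matn3 -0.17 to 0.57, Hapln1 -0.37 to 0.19, Ckm -0.45 to 0.022, Tnnt3 -0.50 to 0.081, Mylpf -0.71 to 0.072, Col1a2 -0.18 to 0.037, Col3a1 -0.073 to 0.28 and Pdgfra -0.0085 to 0.16. The causes were not tested. With a mouse left out, the lone mouse of its group is assumed to vary like the other group. The number of arrays, 2 per group, limits every value here.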
